A study of Mus musculus with 9 samples.

Results

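The 10 genes described here encode the transporter and the enzymes through which developing and mature sperm take up glucose and draw energy from glucose, lactate, pyruvate and glycerol. They were chosen by name: Slc2a3, Hk1, Aldoart1, Gapdhs, Pgk2, Pgam2, Eno4, Ldhc, Gk2 and Pdha2. All 10 were present among the 19991 genes of the count table, and all 10 were among the 15834 genes that passed the filter on low counts. RNA was from whole testis of ICR mice, an outbred stock, at an age of 8 weeks. The groups were an injection of AZ82 at 1 µM (3 libraries), an injection of CW069 at 50 µM (3 libraries) and an injection of PBS, called Control (3 libraries). Both compounds, which carry code names, inhibit KIFC1, a kinesin motor that bundles microtubules in the spindle and takes part in shaping the spermatid nucleus. The labels give no genetic change in any group, no route of injection and no time after it. They also do not say whether the 3 samples of a group came from separate animals. A p-value therefore sets a group difference only against the spread among these samples, and that spread could be technical. The inhibitors were given at different doses, so a difference between them is one between these treatments as given.

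Mouse sperm rely strongly on glycolysis for swimming. Several of the enzymes are anchored to the fibrous sheath, a scaffold along the principal piece of the tail, and many are germ cell isozymes that differ from those of other tissues. Pgk2, Pdha2 and Gk2 are autosomal retrocopies of the X-linked genes Pgk1, Pdha1 and Gk, and the X chromosome is silenced in spermatocytes during meiosis. Not all of the 10 genes belong to the germ line alone: Hk1 and Slc2a3 also serve neurons and other cells, and Pgam2 is the phosphoglycerate mutase of muscle.

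The libraries held between 13856070 and 18102593 counts. Lists of germ cell and somatic markers were detected in every library, with no marker at 0 throughout. Control 3 stood apart from its group: the chi-square per degree of freedom over genes was 26.0 and 30.7 between Control 3 and the other Control libraries, against 3.48 to 7.53 for the 7 other pairs of libraries within a group. All 9 elongating spermatid markers (Prm1, Prm2, Tnp1, Tnp2, Odf1, Smcp, Akap4, Oaz3 and Spem1) were at their lowest of the 9 libraries in Control 3, at a median of -1.26 on the log2 scale relative to Control 1 and 2. Their summed level was 14831 to 18259.7 CPM in AZ82, 12016 to 13986 CPM in CW069 and 6058 to 16378 CPM in Control. The median ratio in Control 3 was -0.20 for 7 round spermatid markers and 0.19 for 8 pachytene spermatocyte markers. Among somatic lists, it was -0.93 for 5 red blood cell, -0.27 for 7 macrophage and -0.25 for 4 adipocyte markers. For 7 Sertoli cell and 7 Leydig cell markers it was -0.06 and -0.01. Counts and fold changes of the 10 genes and of the pathway lists are therefore given with and without Control 3. Of the 7 Leydig cell markers (Star, Cyp11a1, Cyp17a1, Hsd3b1, Hsd3b6, Insl3 and Nr5a1), 6 had a log2 fold change below 0 for AZ82 against Control (median -0.25) and 7 for CW069 against Control (median -0.29). Their summed level was 1460.3 to 1766 CPM in AZ82, 1385 to 1427 CPM in CW069 and 1696 to 1824 CPM in Control, and 0 of the 7 passed an adjusted p of 0.05 (edgeR).

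The isozymes were abundant transcripts. Together they took 1.02% to 1.04% of all counts in AZ82, 0.922% to 0.982% in CW069 and 0.893% to 1.01% in Control. Levels between genes were compared as CPM (counts scaled to library size with TMM factors) per kilobase of the longest annotated transcript, averaged over the 9 libraries. Ldhc, the testis lactate dehydrogenase, was at 2292 CPM per kb (range 2153 to 2482), above every other gene of the set in every library. Gapdhs, the glyceraldehyde-3-phosphate dehydrogenase bound to the fibrous sheath, was at 808 (422 to 945) and Pgam2 at 663 (525 to 763). Then came Hk1 at 440.0 (248 to 546), Pgk2 at 414 (281 to 489), Slc2a3 at 363 (321 to 425) and Gk2 at 313 (291 to 335) CPM per kb. The ranges of neighbours from Gapdhs to Gk2 overlapped over the libraries. Within a library, Gapdhs was above Pgam2 in 8 of 9 libraries, Hk1 above Pgk2 in 7, Pgk2 above Slc2a3 in 7 and Slc2a3 above Gk2 in 8, while Pgam2 was above Hk1 in all 9. Pdha2 at 95.5 (84.3 to 103), Aldoart1 at 66.2 (47.9 to 78.4) and Eno4 at 26.4 (23.6 to 31.3) CPM per kb closed the order, and no library of 1 of these 3 reached the range of the next.

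Each gene was set beside a paralog that serves other tissues. Per kilobase, the widest gaps were those of Gk2 at 313 against Gk at 0.533, Gapdhs at 808 against Gapdh at 4.08, and Slc2a3 at 363 against Slc2a1 at 2.61 CPM per kb. Hk1 at 440.0 stood against Hk2 at 6.87, Pgam2 at 663 against Pgam1 at 17.6, Pgk2 at 414 against Pgk1 at 11.8, and Pdha2 at 95.5 against Pdha1 at 3.65 CPM per kb. The other 3 pairs differed from this picture. Ldhc at 2292 stood against Ldha at 543, with the paralog itself among the high genes, and the order was turned round for Aldoart1 at 66.2 against Aldoa at 241 and for Eno4 at 26.4 against Eno1 at 107 CPM per kb. Gapdh, Pgk1, Pgam1 and Pdha1 have near-identical processed copies in the mouse genome, and the aldolase retrogenes resemble Aldoa. Reads shared between such copies may be lost or misplaced in the counting, so the levels of these genes are uncertain. The gene count of Hk1 likewise joins its somatic and its germ cell transcripts.

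**Figure D1:**
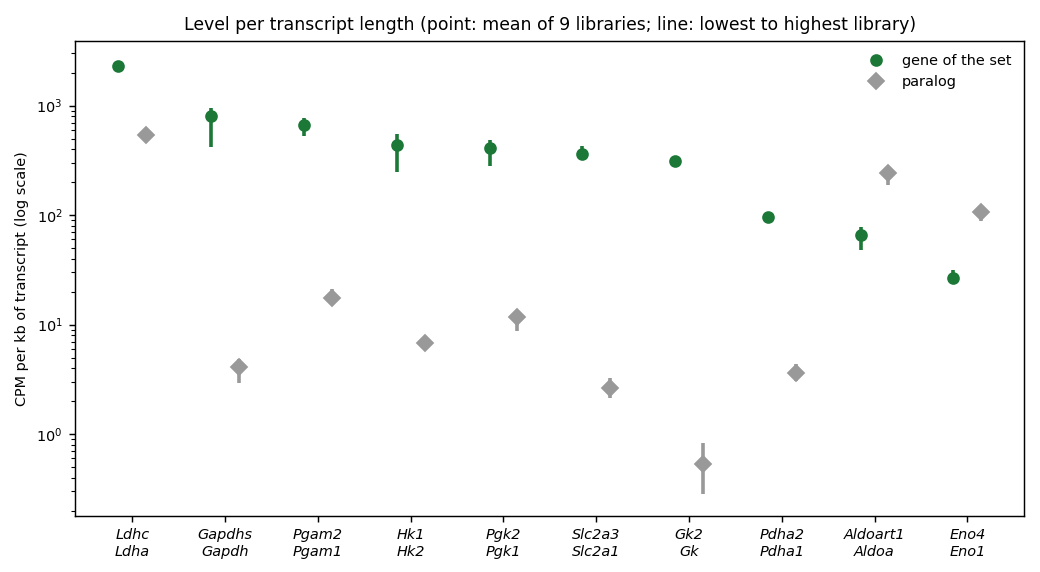
Level of each gene of the set and of its paralog, in CPM per kilobase of transcript on a log axis; points are means of the 9 libraries and lines run from the lowest to the highest library. Ldhc is highest at a mean of 2292 CPM per kb, and the set's gene lies above its paralog in 8 of 10 pairs, with Aldoart1 and Eno4 below theirs.

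Promoter windows are shown for Gapdhs and Ldhc, which hold the most matches of the motifs searched, for Hk1, which holds 1, and for Pgk2, which holds 0. The windows are RefSeq sequence of build GRCm38.p6, from 250 bases before to 50 bases after an annotated start, 5′ to 3′ on the strand of the gene. Capitals mark TGACATCA, TGACG or GGGCGG, the last a GC box, on either strand. The coordinates are chr7:30743632-30743931, minus strand, for Gapdhs, chr10:62379859-62380158, minus strand, for Hk1, chr17:40208560-40208859, minus strand, for Pgk2, and chr7:46861013-46861312, plus strand, for Ldhc.
Gapdhs: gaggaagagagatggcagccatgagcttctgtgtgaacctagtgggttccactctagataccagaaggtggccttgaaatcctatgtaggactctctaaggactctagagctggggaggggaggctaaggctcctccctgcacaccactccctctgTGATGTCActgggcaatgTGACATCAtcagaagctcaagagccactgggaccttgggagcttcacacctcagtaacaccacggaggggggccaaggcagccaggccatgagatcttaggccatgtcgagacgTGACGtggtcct
Hk1: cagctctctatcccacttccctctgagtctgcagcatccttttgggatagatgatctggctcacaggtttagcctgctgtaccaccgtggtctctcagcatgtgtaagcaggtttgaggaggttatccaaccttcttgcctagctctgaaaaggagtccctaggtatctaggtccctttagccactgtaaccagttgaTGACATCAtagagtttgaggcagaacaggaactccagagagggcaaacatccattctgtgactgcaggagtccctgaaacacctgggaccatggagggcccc
Pgk2: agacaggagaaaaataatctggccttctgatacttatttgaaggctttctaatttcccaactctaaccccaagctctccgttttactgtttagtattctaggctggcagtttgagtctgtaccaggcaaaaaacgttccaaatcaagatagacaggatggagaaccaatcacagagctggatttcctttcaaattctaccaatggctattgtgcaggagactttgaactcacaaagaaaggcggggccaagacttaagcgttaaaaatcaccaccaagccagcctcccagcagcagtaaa
Ldhc: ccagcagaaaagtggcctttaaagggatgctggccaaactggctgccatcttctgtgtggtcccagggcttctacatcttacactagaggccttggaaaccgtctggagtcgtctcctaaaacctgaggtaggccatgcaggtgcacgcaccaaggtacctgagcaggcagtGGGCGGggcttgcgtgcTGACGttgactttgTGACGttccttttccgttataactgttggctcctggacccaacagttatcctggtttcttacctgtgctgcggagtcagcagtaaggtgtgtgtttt

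Windows were at hand for 8 of the 10 genes, all but Aldoart1 and Slc2a3, with 11 windows in all, and 32851 windows of the same length over all genes served as background. The full cAMP response element TGACGTCA, the palindrome bound by CREB-family factors such as the germ cell factor CREM, was in 0 of the 11 windows and in 1.79% of all windows. Its shorter core TGACG was in the Gapdhs window above and, 2 times, in the Ldhc window above, and in 20.8% of all windows. TGACATCA, which differs from the full element by 1 base and was looked for after the windows had been read, was in both Gapdhs windows (2 matches each), the Pgam2 window and the Hk1 window above. It was thus in 4 of the 11 windows, for 3 of the 8 genes, and in 3.62% of all windows. The 2 Gapdhs windows share near-identical sequence around their matches, so they are not separate cases. Since the motif was picked from these windows, its count in them cannot be weighed against 3.62%. GGGCGG was in the Ldhc window alone among the 11, against 35.7% of all windows, and TATAAA was in the Pdha2 window alone, against 13.6% of all windows. These matches are letters in a window and not measured binding sites, and the part of any of them in the levels was not tested.

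The 10 genes split by how they stood in Control 3. Gapdhs, Hk1, Pgk2 and Aldoart1 were lower there than in any other library, at 0.467, 0.527, 0.604 and 0.708 times the mean of Control 1 and 2. Pgam2 was also at its lowest of the 9 libraries there, but at 0.842 times. Gk2 at 0.944, Ldhc at 0.979, Pdha2 at 1.07 and Eno4 at 1.10 times differed little from Control 1 and 2, and Slc2a3 at 1.27 times was at its highest of all 9 libraries. Thus 3 of the 10 were lower by more than 1.5-fold in Control 3, against 6.01% of the 9910 genes that averaged 10 CPM or more. In each of the 8 other libraries, set against the other libraries of its group, 0 of the 10 genes were lower by that much, and between 0.151% and 0.858% of genes were. In whole tissue, fewer cells of a type and less RNA per cell cannot be told apart, and the part of the low elongating spermatid markers of Control 3 in the levels of these genes was not tested.

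**Figure D2:**
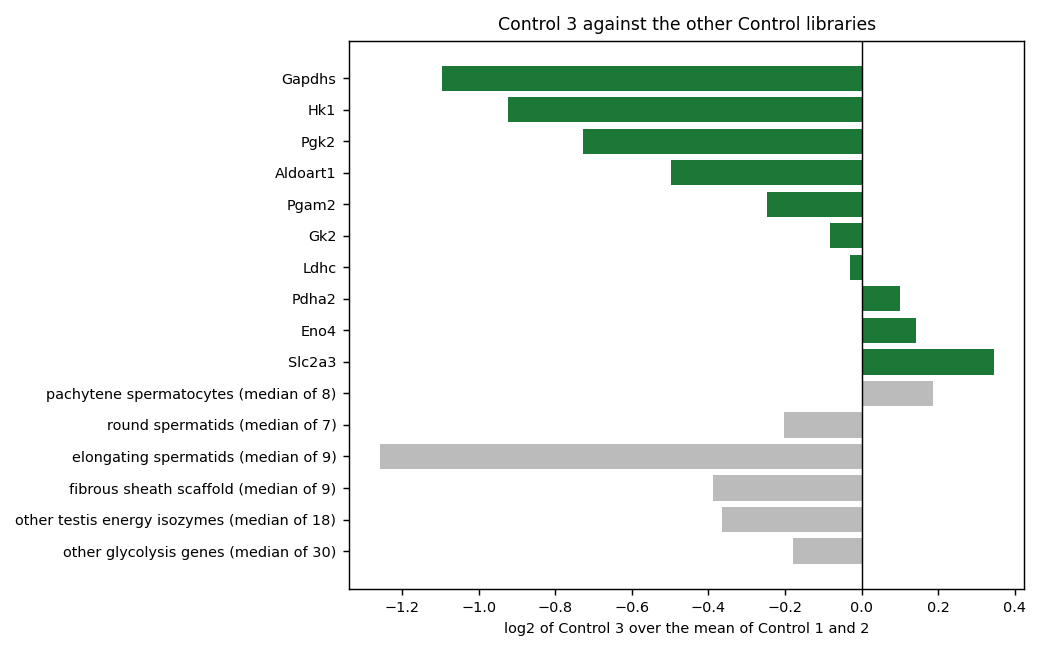
Level in Control 3 over the mean of Control 1 and 2 (log2) for the 10 genes, and as a median for marker and pathway lists. Gapdhs, Hk1 and Pgk2 lie lowest among the 10 genes at -1.10, -0.92 and -0.73, the elongating spermatid list has a median of -1.26, and Slc2a3 lies highest at 0.35.

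Sugar uptake and its first phosphorylation come first in the pathway. Slc2a3, the glucose transporter GLUT3, was at 1570.4, 1309 and 1439 CPM in AZ82 1 to 3, at 1424, 1428 and 1445 CPM in CW069 1 to 3, and at 1269, 1379 and 1682 CPM in Control 1 to 3. The 3 groups overlapped, and both the highest and the lowest library were in Control. Its log2 fold change was -0.0037 ± 0.11 for AZ82 and -0.01 ± 0.11 for CW069 against Control (SE), with 95% intervals of -0.24 to 0.23 and -0.24 to 0.22. Hk1, which phosphorylates glucose on entry, was at 2132, 2208 and 2337 CPM in AZ82, at 1627, 1552 and 1994 CPM in CW069, and at 2129.6, 1898 and 1062 CPM in Control. All 3 AZ82 libraries lay above all Control and all CW069 libraries, although the gap between AZ82 1 and Control 1 was small, and CW069 overlapped Control. The log2 fold change was 0.39 ± 0.21 for AZ82 and 0.02 ± 0.21 for CW069 against Control, and -0.37 ± 0.21 for CW069 against AZ82. None passed the test, with adjusted p of 0.597, 0.986 and 0.999 (edgeR, Benjamini-Hochberg over all genes).

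At the middle steps of glycolysis, Gapdhs, Pgk2 and Aldoart1 shared a low value in Control 3. Gapdhs was at 1269, 1299 and 1366 CPM in AZ82, at 1085, 1041 and 1293 CPM in CW069, and at 1377, 1255 and 615 CPM in Control. AZ82 libraries were close to each other and to Control 1 and 2, with Control 3 far below all, and the groups overlapped. Relative to Control, the log2 fold change was 0.28 ± 0.23 for AZ82 and 0.07 ± 0.23 for CW069. Pgk2, which makes the first ATP of the pathway, was at 655, 787 and 773 CPM in AZ82, at 669, 550.0 and 653 CPM in CW069, and at 795, 718 and 457 CPM in Control. Here too the groups overlapped and Control 3 was lowest. This gave a log2 fold change of 0.17 ± 0.17 for AZ82 and -0.07 ± 0.17 for CW069 against Control. Aldoart1, an aldolase retrogene of the germ line that splits fructose bisphosphate, was at 131, 159 and 152 CPM in AZ82, at 127, 116 and 161 CPM in CW069, and at 142, 136 and 98.3 CPM in Control. Its groups overlapped as well, with Control 3 the lowest library. Against Control, log2 fold changes were 0.23 ± 0.15 for AZ82 and 0.11 ± 0.15 for CW069.

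The lower steps held the gene with the smallest p of the set. Pgam2, which moves the phosphate of phosphoglycerate, was at 641, 591 and 623 CPM in AZ82, at 547, 546 and 572 CPM in CW069, and at 521, 527 and 441 CPM in Control. The groups did not overlap: every AZ82 library lay above every CW069 library, and every CW069 library above every Control library. The log2 fold change was 0.32 ± 0.08 for AZ82 against Control, at an unadjusted p of 0.00222 and an adjusted p of 0.554 (edgeR, Benjamini-Hochberg), which does not pass. It was 0.16 ± 0.08 for CW069 against Control (adjusted p = 0.689, edgeR) and -0.16 ± 0.08 for CW069 against AZ82 (adjusted p = 0.999, edgeR). For the mean of both inhibitors against Control it was 0.24 ± 0.07, with an adjusted p of 0.488 (edgeR). Since Pgam2 is also made in muscle, 5 skeletal muscle markers (Acta1, Ckm, Myh4, Mylpf and Tnnt3) were summed: 2.45 to 3.06 CPM in AZ82, 1.71 to 1.99 CPM in CW069 and 1.86 to 2.28 CPM in Control. They were thus near 0 beside the 441 to 641 CPM of Pgam2, and Tnnt3 was at 0 in all 3 AZ82 libraries. Ckm, the muscle creatine kinase, was at 1.09, 1.43 and 1.01 CPM in AZ82, at 0.616, 0.890 and 0.852 CPM in CW069, and at 0.759, 0.449 and 0.200 CPM in Control. AZ82 lay above the other groups without overlap, as for Pgam2, and CW069 overlapped Control. The other muscle markers did not share this. In Acta1, Myh4 and Mylpf AZ82 overlapped Control, and Tnnt3 was lower in AZ82 than in Control without overlap. Mylpf was at 1.31, 0.714 and 0.938 CPM in AZ82 and at 0.966, 1.03 and 1.20 CPM in Control. The log2 fold change of Ckm was 1.32 ± 0.40 for AZ82 against Control (unadjusted p = 0.0078, adjusted p = 0.554, edgeR), from 3 to 20 reads a library, and the part of muscle RNA in the level of Pgam2 was not tested. Eno4, an enolase of the sperm tail, was at 71.4, 62.6 and 66.5 CPM in AZ82, at 80.0, 80.5 and 60.7 CPM in CW069, and at 61.0, 61.0 and 67.3 CPM in Control. CW069 1 and 2 were the highest libraries and CW069 3 the lowest of all 9, so the groups overlapped. Against this spread, the log2 fold change was 0.08 ± 0.11 for AZ82 and 0.22 ± 0.11 for CW069 against Control.

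Ldhc, Gk2 and Pdha2 varied least. Ldhc, which interconverts pyruvate and lactate in germ cells, was at 3254, 3261 and 3157 CPM in AZ82, at 3401, 2949 and 3115 CPM in CW069, and at 3026, 3099 and 2999 CPM in Control. AZ82 lay above Control without overlap, but by little, and CW069 held both the highest and the lowest library of all. The log2 fold change was 0.08 ± 0.07 for AZ82 and 0.05 ± 0.07 for CW069 against Control. Gk2, the germ cell glycerol kinase, was at 564, 618 and 558 CPM in AZ82, at 629, 547 and 578 CPM in CW069, and at 618, 612 and 581 CPM in Control. The groups overlapped. Its log2 fold change was -0.06 ± 0.07 for AZ82 and -0.04 ± 0.07 for CW069 against Control. Pdha2, the germ cell E1 alpha subunit of the complex that passes pyruvate to the citric acid cycle, was at 232, 234 and 206 CPM in AZ82, at 242, 224 and 228 CPM in CW069, and at 198, 228 and 228 CPM in Control. Its groups overlapped too. That gave log2 fold changes of 0.04 ± 0.08 for AZ82 and 0.09 ± 0.08 for CW069 against Control. The 95% intervals of these 3 genes stayed within -0.22 and 0.26 in both comparisons with Control, so the spread leaves room for changes of that size.

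**Figure D3:**
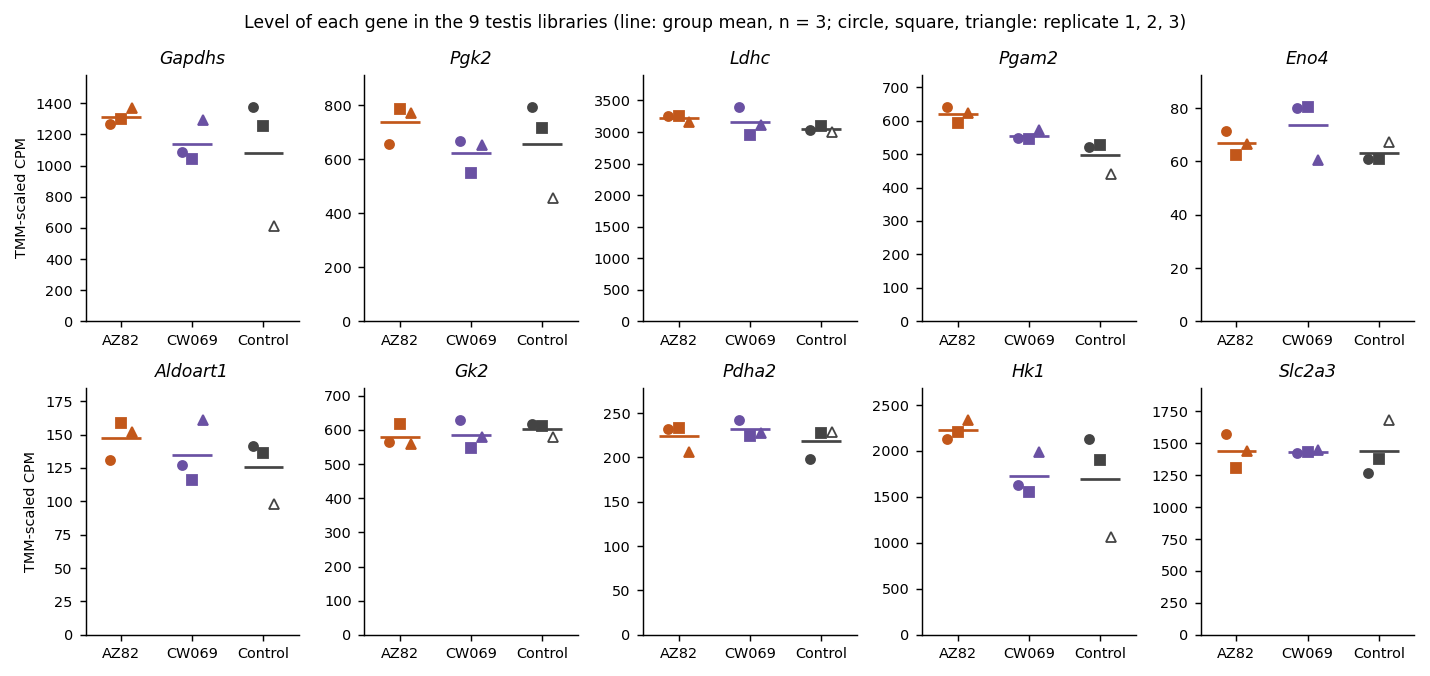
Level in CPM of each of the 10 genes in every library, one panel per gene with its own axis from 0; circles, squares and triangles are replicates 1, 2 and 3, short lines are group means (n = 3), and the open triangle is Control 3. In Pgam2 the AZ82, CW069 and Control libraries do not overlap, at means of 618, 555 and 496 CPM, and in Gapdhs, Hk1, Pgk2 and Aldoart1 Control 3 is the lowest point.

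Taken by comparison, 0 of the 10 genes passed an adjusted p of 0.05 with edgeR for AZ82, for CW069 or for the mean of both against Control, or for CW069 against AZ82. DESeq2 and limma-voom called 0 of them as well. Over all 15834 genes tested, edgeR called 0, 0, 1 and 0 in these 4 comparisons, that is 0%, 0%, 0.00632% and 0% of genes. For AZ82 against Control, 8 of 10 had a log2 fold change above 0, with a median of 0.13, against 49.7% of all genes and a median of -0.0010. Pgam2 alone had an unadjusted p under 0.05, and it was higher, as were 4.04% of all genes, while 0 of 10 and 4.79% of all genes were lower. Ldhc, Pgam2 and Hk1, 3 of 10, were higher without overlap, against 6.65% of all genes, and 0 of 10 were lower without overlap, against 8.62%. Without Control 3, 7 of 10 were above 0 for AZ82, with a median of 0.08, against 49.8% of all genes. All 9 elongating spermatid markers were above 0 in the same comparison, with a median of 0.40, and 8 of 9 without Control 3, with a median of 0.09. All 7 round spermatid markers were above 0 with and without Control 3, with medians of 0.15 and 0.09. Of 8 pachytene spermatocyte markers, 4 were above 0 with all libraries and 6 without Control 3. Of the 7 Leydig cell markers, 4 had an unadjusted p under 0.05 and were lower, with and without Control 3. The part of these markers in the counts of the 10 genes was not tested.

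For CW069 against Control, 7 of 10 were above 0, with a median of 0.06, against 49.0% of all genes and a median of -0.0038. There were 0 of 10 with an unadjusted p under 0.05, against 7.34% of all genes, and Pgam2 alone was higher without overlap, against 6.13% of all genes, with 0 of 10 lower, against 7.24%. Without Control 3, 5 of 10 were above 0, with a median of 0.0012, against 49.1% of all genes. The elongating spermatid markers had 7 of 9 above 0 with all libraries, at a median of 0.05, and 1 of 9 without Control 3, at a median of -0.29. Round spermatid markers had 7 of 7 above 0 with all libraries, at a median of 0.09, and 6 of 7 without Control 3, at 0.08. Pachytene spermatocyte markers had 4 of 8 above 0 with all libraries and 5 of 8 without Control 3. All 7 Leydig cell markers were lower in CW069 than in Control without overlap, 5 of them with an unadjusted p under 0.05, and their smallest adjusted p was 0.151 (edgeR). The part of these marker lists in the counts of the 10 genes was not tested. For CW069 against AZ82, 3 of 10 were above 0, against 49.6% of all genes, and Pgam2 and Hk1 were lower without overlap, against 5.80% of all genes, with 0 of 10 higher, against 5.52%. There were 0 of 10 with an unadjusted p under 0.05 here, against 4.97% of all genes. With both inhibitors taken as 1 mean, Pgam2 alone was past an unadjusted 0.05 in edgeR's quasi-likelihood test (unadjusted p = 0.00567, adjusted p = 0.488) and was higher, as were 4.31% of all genes. It was the 1 gene of the set higher without overlap there, as were 2.19% of all genes. The comparisons of AZ82 and of CW069 with Control share the 3 Control libraries and are not independent.

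**Figure D4:**
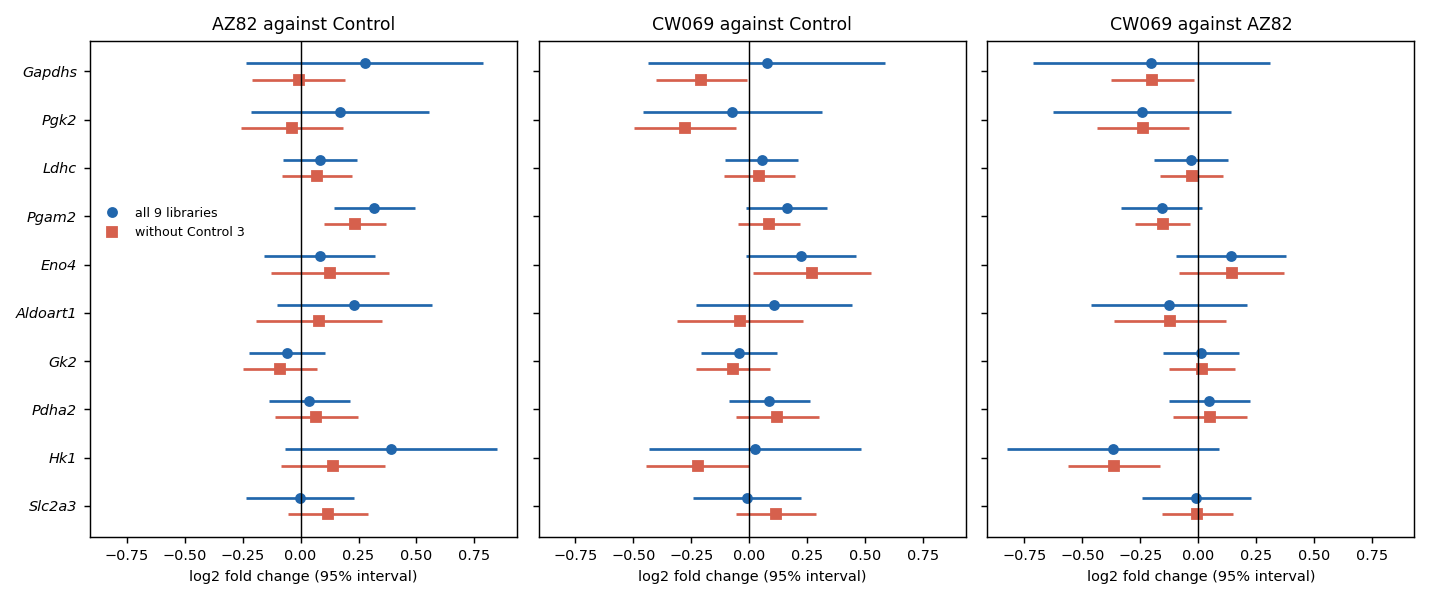
Log2 fold change of each gene with its 95% interval for AZ82 against Control, CW069 against Control and CW069 against AZ82, with all 9 libraries and without Control 3. Without Control 3, Gapdhs and Pgk2 move to -0.21 and -0.28 for CW069 against Control, and Pgam2 moves from 0.32 to 0.24 for AZ82 against Control.

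Without Control 3, the fold changes of the genes that were low in it moved the most. For AZ82 against Control, Gapdhs then was at -0.01 ± 0.09, Pgk2 at -0.04 ± 0.10, Aldoart1 at 0.08 ± 0.12 and Hk1 at 0.14 ± 0.10, while Pgam2 was at 0.24 ± 0.06 with an unadjusted p of 0.0025 and an adjusted p of 0.632 (edgeR), 1 of 10 against 3.36% of genes. For CW069 against Control, Pgk2 was at -0.28 ± 0.10, Hk1 at -0.22 ± 0.10 and Gapdhs at -0.21 ± 0.09, with Aldoart1 at -0.04 ± 0.12. Gapdhs and Hk1 were above 0 in that comparison with all 9 libraries, and without CW069 3 they were at -0.03 and -0.09, so their direction rests on either of 2 libraries. Pgk2, Hk1 and Gapdhs, 3 of 10, had an unadjusted p under 0.05 and were lower, against 4.79% of genes, and Eno4 at 0.27 ± 0.12 was the 1 that was higher, against 4.07%. The adjusted p ran from 0.474 to 0.560 for these 4 genes (edgeR), so 0 passed.

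The comparison of the inhibitors with each other uses no Control library for its fold changes, but shares the estimate of the spread with them. Without Control 3, Hk1 was at -0.36 ± 0.09 for CW069 against AZ82, with an unadjusted p of 0.0020 and an adjusted p of 0.264 (edgeR). Pgk2 was at -0.24 ± 0.09, Gapdhs at -0.20 ± 0.08 and Pgam2 at -0.15 ± 0.05, so that 4 of 10 had an unadjusted p under 0.05 and were lower, against 4.27% of genes. The adjusted p of these 4 ran from 0.264 to 0.623 (edgeR) and 0 passed. In the same fit 6 of 9 elongating spermatid markers also had an unadjusted p under 0.05 and were lower in CW069 than in AZ82. At the same threshold 5 of 9 were lower in CW069 than in Control 1 and 2, against 4.79% of genes. The medians of the 9 markers were -0.33 against AZ82 and -0.29 against Control 1 and 2. The part of these markers in the levels of the isozymes was not tested.

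Ratios between the 10 genes show which of them kept step. The measure was the SD over the 9 libraries of the log2 ratio of a pair, where a small SD means that the levels moved together or both stayed level. The smallest of the 45 pairs were Ldhc with Gk2 at 0.074 and Ldhc with Pdha2 at 0.081, all 3 of them level genes. Gapdhs with Hk1 followed at 0.090, although each of these varied by itself, with SDs of 0.365 and 0.356. Pgk2 with Aldoart1 was at 0.134. The widest pair was Gapdhs with Slc2a3 at 0.462, or 0.196 without Control 3, while Gapdhs with Hk1 was at 0.085 without Control 3. The scaling of a library cancels in these ratios, but the 9 points are few, so these SDs are a description.

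**Figure D5:**
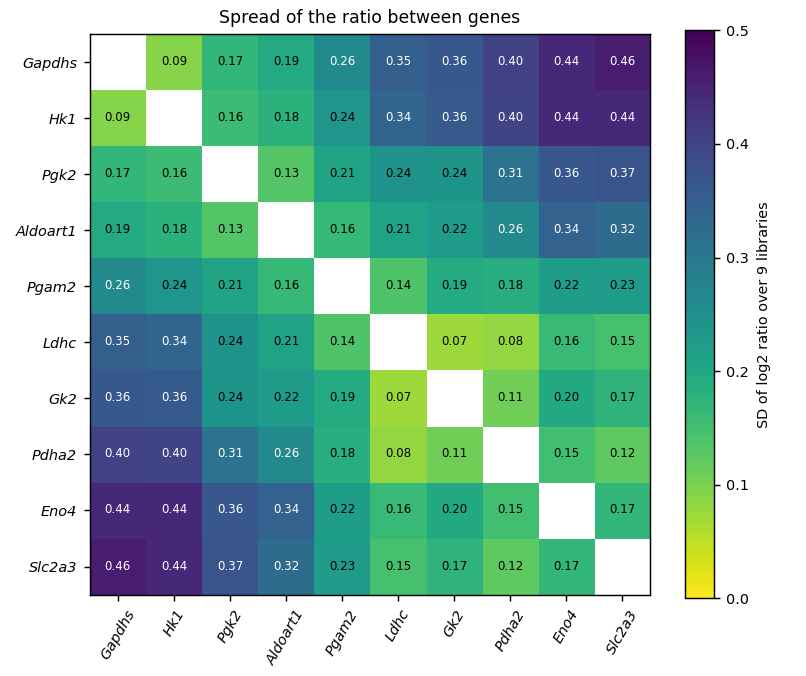
SD over the 9 libraries of the log2 ratio for each pair of the 10 genes; darker cells mark the wider spread given by the colour bar. Ldhc, Gk2 and Pdha2 form tight pairs at 0.074 to 0.108, Gapdhs with Hk1 is at 0.090, and Gapdhs with Slc2a3 is widest at 0.462.

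By the same measure over 9568 genes that averaged 10 CPM or more, predicted genes left out, the closest genes to each member were sought. Gapdhs was closest to Fam243 at 0.049 and Lrrc8b at 0.059, and Hk1 to Osbp2 at 0.048 and Actl11 at 0.051. Fam243 was at 265, 280.3 and 299 CPM in AZ82, at 231, 213 and 277 CPM in CW069, and at 283, 272 and 141 CPM in Control, so it shared the low value of Gapdhs in Control 3. Pgk2 was closest to Fscb at 0.059, a protein of the fibrous sheath, with Sgms1 next at 0.062. Aldoart1 was closest to Adcy10 at 0.052, the soluble adenylyl cyclase of sperm, with Fam81b next at 0.069. Pgam2 was closest to Samd4b at 0.028 and Pcnt at 0.050. Like Fam243, the genes Lrrc8b, Osbp2, Actl11, Fscb, Sgms1, Adcy10, Fam81b, Samd4b and Pcnt were at their lowest in Control 3. SDs without Control 3 were not computed for these genes. Among the level genes, Ldhc was closest to Eef1a1 at 0.036, a translation elongation factor, and Pdha2 to Alg3 at 0.043. Gk2 was closest to the ribosomal protein genes Rpl12 at 0.032 and Rpl5 at 0.035. Slc2a3 was closest to Cyb561a3 at 0.032, and both were highest in Control 3. Eno4 was closest to Tcp10a at 0.058. Next were Eid3 at 0.038 for Ldhc, Gpatch2l at 0.044 for Pdha2, Kctd7 at 0.035 for Slc2a3 and Crybg3 at 0.061 for Eno4. The median SD over all candidates ran from 0.136 for Ldhc to 0.390 for Gapdhs.

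Within a library, the ratio of each isozyme to its paralog hardly depends on the scaling, except through the pseudocount where the paralog is low. For 10 pairs, log2 ratios of CPM with a pseudocount of 0.5 were compared by a two-sided exact permutation test, whose smallest p is 0.1 for 3 libraries against 3 and 0.0238 for the 6 inhibitor libraries against 3. Pgam2 over Pgam1 was at 4.29 ± 0.02 in AZ82, 4.25 ± 0.15 in CW069 and 3.86 ± 0.30 in Control (SD, n = 3 each). AZ82 lay above Control without overlap (exact p = 0.1, adjusted over the 10 pairs 0.5), and the 6 inhibitor libraries differed from Control by 0.41 (exact p = 0.0476, adjusted 0.397). Hk1 over Hk2 was at 5.93 ± 0.14 in AZ82, 5.48 ± 0.23 in CW069 and 5.35 ± 0.47 in Control, where AZ82 lay above the other groups without overlap. Gk2 over Gk was at 7.74 ± 0.27 in AZ82, 7.99 ± 0.28 in CW069 and 7.50 ± 0.23 in Control, with CW069 above Control without overlap, at a level of Gk of only 1.23 to 3.59 CPM. Without Control 3, where Pgam2 over Pgam1 was at 3.54, the inhibitor libraries differed from Control by 0.25 for that ratio, and Hk1 over Hk2 by 0.32 for AZ82 and -0.14 for CW069. Ldhc over Ldha was the steadiest, at 1.67 ± 0.05 in AZ82, 1.68 ± 0.03 in CW069 and 1.66 ± 0.05 in Control. With 3 libraries against 3, no ratio could pass 0.05, since the smallest p is 0.1. For the 6 inhibitor libraries against Control, 0 ratios passed after adjustment over the 10 pairs. A single pair at 0.0238 could not have passed that adjustment either. At an unadjusted p under 0.05 there was 1 ratio, Pgam2 over Pgam1.

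The other genes of the pathway gave 0 calls by edgeR in every list and comparison. Of 26 other glycolysis genes tested, 0 had an unadjusted p under 0.05 for AZ82 against Control. This list also holds the paralogs Gapdh, Pgk1, Ldha, Pgam1, Eno1, Aldoa and Hk2 named above. Pgam1 alone had one for CW069 against Control, and it was lower, at -0.23 ± 0.10. Of all genes, 4.04% were higher and 4.79% lower for AZ82 at that threshold, and 3.63% and 3.71% for CW069. The list had 19 of 26 above 0 for AZ82 and 11 for CW069 against Control, with medians of 0.12 and -0.02. Of all genes, 49.7% and 49.0% were above 0. Without Control 3, 16 and 7 of 26 were above 0, with medians of 0.02 and -0.07, against 49.8% and 49.1% of all genes. At an unadjusted p under 0.05, 0 and 2 were then lower, against 4.45% and 4.79% of all genes. Tpi1, the triose phosphate isomerase, was at 274, 293 and 287 CPM in AZ82, at 235, 212 and 232 CPM in CW069, and at 281, 281 and 182 CPM in Control. CW069 lay below AZ82 without overlap, with a log2 fold change of -0.33 ± 0.14. Aldoart2, another aldolase retrogene, was at 425, 410.2 and 419 CPM in AZ82, at 391, 365 and 462 CPM in CW069, and at 393, 369 and 266 CPM in Control. AZ82 lay above Control without overlap, at 0.29 ± 0.13.

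Of 13 tested genes for sugar, lactate and pyruvate transport, 3 had an unadjusted p under 0.05 and were lower in AZ82 than in Control, against 4.79% of all genes: Slc2a4 at -0.78 ± 0.33, Emb at -0.33 ± 0.14 and Slc16a1 at -0.21 ± 0.08, where Slc16a1 is a lactate transporter and Emb a partner protein of such transporters. For CW069 against Control, 2 were higher, the fructose transporter Slc2a5 at 0.17 ± 0.07 and the monocarboxylate transporter Slc16a7, and 1 was lower, Slc2a4 at -0.77 ± 0.32, against 3.63% and 3.71% of all genes. Slc2a4, the glucose transporter of muscle and fat, was at 0.873, 0.857 and 0.866 CPM in AZ82, at 0.753, 0.890 and 0.965 CPM in CW069, and at 1.73, 0.834 and 1.93 CPM in Control. Control 2 lay below the AZ82 libraries, so the groups overlapped at a level of 11 to 29 reads. Without Control 3, of 14 tested genes 1 was higher and 1 lower in each of these comparisons, against 3.36% and 4.45% of all genes for AZ82 and 4.07% and 4.79% for CW069. Of 12 genes for the pyruvate dehydrogenase complex and its regulators, Pdk2, a kinase that inhibits the complex, had the smallest p. Of the 12, 1 was higher and 1 lower for AZ82 against Control at an unadjusted p under 0.05, against 4.04% and 4.79% of genes. For AZ82 3 were above 0 and 9 below, with a median of -0.08, against 49.7% of all genes above 0. Pdk2 alone was higher for CW069 against Control and 0 were lower, against 3.63% and 3.71% of all genes. For CW069 4 were above 0 and 8 below, with a median of -0.05, against 49.0% of all genes above 0. Pdk2 averaged 216 CPM in AZ82, 225 CPM in CW069 and 190.3 CPM in Control, and both inhibitor groups lay above Control without overlap. Its log2 fold change was 0.18 ± 0.07 for AZ82 and 0.24 ± 0.07 for CW069, with adjusted p of 0.554 and 0.524 (edgeR). The 1 that was lower for AZ82, Pdha1, the somatic E1 alpha subunit, was at 9.02, 9.28 and 9.74 CPM in AZ82, at 11.5, 10.7 and 8.63 CPM in CW069, and at 12.5, 10.1 and 12.1 CPM in Control. AZ82 lay below Control without overlap, at -0.30 ± 0.13. Without Control 3, 0 of 12 were higher and 1 lower for AZ82, and 1 higher and 0 lower for CW069. The shares of all genes were 3.36% and 4.45% for AZ82 and 4.07% and 4.79% for CW069.

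Among 12 tested adenylate and creatine kinases, 1 was higher for AZ82 and 2 for CW069 at an unadjusted p under 0.05, against 4.04% and 3.63% of all genes. Without Control 3, 1 was higher for AZ82 and 0 for CW069, against 3.36% and 4.07% of all genes. The 1 for AZ82 was Ckm, whose values stand above, and Ak4 and Ak8 were at 0.31 ± 0.14 and 0.21 ± 0.08 for CW069 against Control. Of the 9 fibrous sheath genes, of which Akap4 is also in the elongating spermatid list, all 9 were above 0 for AZ82 against Control, with a median of 0.12 and 0 with an unadjusted p under 0.05. For CW069 against Control 8 of 9 were above 0, with a median of 0.09, and Cabyr, a calcium-binding protein of the sheath, was at 0.22 ± 0.09. Without Control 3, 6 of 9 were above 0 for AZ82, with a median of 0.01, and 4 of 9 for CW069, with a median of -0.02, and 0 had an unadjusted p under 0.05. In Control 3, 6 of the 9 were at their lowest of the 9 libraries, with a median of -0.39 on the log2 scale relative to Control 1 and 2. A further list of 18 genes for energy supply in germ cells, which also holds Gk and Tpi1, had 13 genes above 0 for AZ82 and 11 for CW069 against Control, with medians of 0.12 and 0.02, and 9 of its 18 genes were at their lowest in Control 3. Without Control 3, 13 were above 0 for AZ82 and 6 for CW069, with medians of 0.06 and -0.07. At an unadjusted p under 0.05, 1 was then lower for AZ82, against 4.45% of all genes, and 6 for CW069, against 4.79%. With all 9 libraries 0 and 1 were lower, against 4.79% and 3.71%. Above 0 were 49.7% and 49.0% of all genes for AZ82 and CW069 against Control, and 49.8% and 49.1% without Control 3.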

How the data were processed

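Reads per gene were counted in 9 testis libraries, 3 per group. The deposited values are whole-number read counts without normalization by the authors. Trimmomatic, HISAT2, HTSeq and build GRCm39 are named, without versions or settings, in the submitters' processing notes. The library kit is a stranded one, per the labels' protocols; whether counting used the strand is not given in the sources used here. The counts of the joint table equalled those deposited for each library in all 19991 genes.

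filterByExpr by group removed low genes, TMM factors scaled the libraries, and edgeR 4.0.16 under R 4.3.3 fitted a mean for each of the 3 groups in 1 model of all 9 libraries. The quasi-likelihood F test is two-sided, and p-values were adjusted by Benjamini-Hochberg over the 15834 genes tested, with calls at 0.05. The script was tested on simulated data. Levels are TMM-scaled CPM, divided by the longest GENCODE transcript (GRCm38) where genes are compared. DESeq2 1.42.0 and limma-voom (limma 3.58.1) were alternatives, with others given below. The 10 genes, the pathway and marker lists and the motifs were chosen with earlier results of these data known, so list counts are descriptions.

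The genes named are the 10 isozymes, their paralogs, up to 4 genes per pathway list by smallest p and up to 2 genes closest in pattern to each isozyme. Slc16a7 was named after its value was seen, and list counts without Control 3 were added after the data were seen. With totals of 13856070 counts or more, counting error is small beside the spread between libraries for the 10 isozymes, but not for low genes such as Gk, Ckm and Slc2a4.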

Additional observations from a re-analysis of the deposited data

How the results depend on the processing

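Over the 10 genes and 4 comparisons, 0 fold changes passed an adjusted p of 0.05 under any setting. The smallest adjusted p was 0.238, for Pgam2 in AZ82 against Control. Pgam2 kept its direction in all settings, at 0.24 to 0.36 for AZ82 and 0.083 to 0.21 for CW069 against Control. Slc2a3, near 0 for AZ82 against Control, was at 0.0055 with RLE factors and with DESeq2, 0.0025 with limma-voom and 0.00086 with the replicate block. For the mean of both inhibitors it was at 0.0020 with RLE factors and with DESeq2 and 0.00080 with limma-voom. In the whole table DESeq2 called 6 genes for AZ82 and 28 for CW069 against Control, 13 for CW069 against AZ82 and 15 for the mean of both, where edgeR called 0, 0, 0 and 1. There was 1 call for AZ82 against Control with limma-voom, and there were 8 for CW069 against AZ82 when those groups were fitted alone. A fit of the compared groups alone was not run for the mean of both, which uses all groups. Same-numbered libraries did not deviate together (correlations -0.146 to 0.0427), so the numbers were not read as pairs, and the replicate block gave 0 called genes for the mean of both and moved no other call. With 1 library left out in turn, called genes numbered 0 to 4 for AZ82 and 0 to 7 for CW069 against Control, 0 to 4 for CW069 against AZ82 and 0 to 6 for both inhibitors. The log2 fold changes whose sign turned with 1 library left out are given by their lowest and highest value. In AZ82 against Control they were Gapdhs -0.0086 to 0.49, Pdha2 -0.025 to 0.096, Pgk2 -0.039 to 0.33 and Slc2a3 -0.088 to 0.12. In CW069 against Control they were Aldoart1 -0.042 to 0.20, Gapdhs -0.21 to 0.29, Hk1 -0.22 to 0.22, Ldhc -0.0041 to 0.097, Pgk2 -0.28 to 0.088 and Slc2a3 -0.095 to 0.11. In CW069 against AZ82 they were Gk2 -0.038 to 0.061, Ldhc -0.083 to 0.018, Pdha2 -0.0090 to 0.079 and Slc2a3 -0.071 to 0.060. In both inhibitors against Control they were Gapdhs -0.11 to 0.39, Hk1 -0.041 to 0.40, Pdha2 -0.00097 to 0.095, Pgk2 -0.16 to 0.21 and Slc2a3 -0.092 to 0.12. The differences in log2 isozyme ratio whose sign turned with 1 library left out are given by their lowest and highest value. For AZ82 against Control they were Eno4 over Eno1 -0.15 to 0.095, Gapdhs over Gapdh -0.24 to 0.49, Ldhc over Ldha -0.019 to 0.040 and Slc2a3 over Slc2a1 -0.078 to 0.29. For CW069 against Control they were Aldoart1 over Aldoa -0.047 to 0.17, Gapdhs over Gapdh -0.29 to 0.44, Hk1 over Hk2 -0.14 to 0.31, Ldhc over Ldha -0.013 to 0.040, Pgk2 over Pgk1 -0.19 to 0.21 and Slc2a3 over Slc2a1 -0.12 to 0.25. For CW069 against AZ82 they were Aldoart1 over Aldoa -0.15 to 0.065, Gapdhs over Gapdh -0.32 to 0.13, Ldhc over Ldha -0.023 to 0.029, Pgam2 over Pgam1 -0.096 to 0.036 and Slc2a3 over Slc2a1 -0.16 to 0.13. For both inhibitors against Control they were Eno4 over Eno1 -0.050 to 0.20, Gapdhs over Gapdh -0.27 to 0.47, Ldhc over Ldha -0.016 to 0.037, Pgk2 over Pgk1 -0.066 to 0.33 and Slc2a3 over Slc2a1 -0.098 to 0.27. The cause of these moves was not tested. The pseudocount of 0.05 CPM kept the direction of 40 of 40 isozyme ratio differences, and no filter on low counts kept that of 40 of 40 fold changes. The replicate block cannot change an isozyme ratio difference, since every group holds the same replicate numbers. As for limits, 3 libraries per group leave wide intervals for Gapdhs, Hk1 and Pgk2, gene counts do not separate transcripts of Hk1, and reads shared with near-identical copies limit Gapdh, Pgk1, Pgam1 and Pdha1.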
